A study of Mus musculus with 8 samples.

Results

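The 56 genes described here are interferon response genes, a fixed list of mouse genes known to be induced by interferon, with the 4 genes of the Phf11 family among them. They were matched by symbol among 47311 genes measured as polyA RNA in LSK cells, the lineage-negative, Sca1-positive, Kit-positive fraction of bone marrow that holds the blood stem cells and early progenitors. All 56 were found, and all 56 passed the filter on low counts that left 25543 genes for testing. The 8 libraries came from 8 mice: 2 young Asxl2 WT, 2 old Asxl2 WT, 2 young Asxl2 KO and 2 old Asxl2 KO. Young mice were 8 to 12 weeks of age and old mice over 1 year. KO stands for loss of Asxl2, which encodes a chromatin regulator of the Asxl family; the labels give neither the allele nor how the gene was inactivated. Every KO mouse has a WT littermate, which makes 4 litters. Litters 1 and 2 are the old ones and litters 3 and 4 the young ones, and each group has 1 mouse in each of 2 batches. The 2 mice of a group therefore differ in litter and batch as well as in themselves, and p-values measure the spread between such mice.

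Interferons are secreted proteins that bind receptors at the cell surface and activate kinases of the Jak family. Type I interferons act through a factor complex with Stat2 and Irf9 that binds the interferon-stimulated response element in gene promoters, and interferon gamma acts mainly through the gamma-activated site. The induced genes encode sensors of foreign RNA and DNA, enzymes that block viral replication, GTPases that attack vacuoles holding microbes, and membrane proteins that hinder viral entry or release. In blood stem cells interferon is known to draw resting cells into division, and Sca1, the protein used to sort LSK cells, is itself encoded by an interferon-induced gene, Ly6a.

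Promoters show the sequence that much of the list shares. The core of the response element was searched as GAAANNGAAA and that of the gamma-activated site as TTCNNNGAA, each on both strands, in RefSeq windows of 300 bases (250 before and 50 after each gene's start, GRCm38.p6). Of the 44 members with a window, 22 (50%) held the first core, against 1079 of 27025 genes (3.99%). The second core was in 12 of the 44 (27.3%), against 2582 of 27025 (9.55%). A match describes letters and is no proof of a bound site. The stretches printed here are the 120 bases before the start of 6 members, with the first core in capitals. Isg15, Ifit1 and Oas1a are shown because they carry several overlapping or adjacent copies, Igtp as one of the interferon-inducible GTPases, and Phf11b and Phf11d because they are neighbours of 1 family and only the latter was called. They lie at chr4:156200819-156200938 (minus strand), chr19:34640769-34640888 (plus), chr5:120907526-120907645 (minus), chr11:58199436-58199555 (plus), chr14:59341331-59341450 (minus) and chr14:59365491-59365610 (minus).
Isg15: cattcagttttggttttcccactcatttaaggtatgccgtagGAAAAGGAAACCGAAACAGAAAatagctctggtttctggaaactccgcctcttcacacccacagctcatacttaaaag
Ifit1: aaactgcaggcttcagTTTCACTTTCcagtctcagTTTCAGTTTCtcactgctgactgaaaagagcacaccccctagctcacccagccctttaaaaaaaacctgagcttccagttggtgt
Oas1a: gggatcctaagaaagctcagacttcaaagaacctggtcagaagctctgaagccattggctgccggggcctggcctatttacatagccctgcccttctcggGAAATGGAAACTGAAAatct
Igtp: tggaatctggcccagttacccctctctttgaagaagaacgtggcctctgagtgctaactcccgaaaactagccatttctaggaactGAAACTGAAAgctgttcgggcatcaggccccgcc
Phf11b: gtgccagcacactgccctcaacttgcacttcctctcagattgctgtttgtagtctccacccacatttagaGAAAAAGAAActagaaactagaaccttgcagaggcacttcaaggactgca
Phf11d: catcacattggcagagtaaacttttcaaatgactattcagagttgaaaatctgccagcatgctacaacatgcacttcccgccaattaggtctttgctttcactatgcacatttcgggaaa
Isg15 held 3 copies of the core, the first beginning 78 bases before the start, and Oas1a held 2, from 20 bases before it. In Ifit1 the 2 copies lie on the opposite strand. Phf11b held 1 copy, 50 bases before its start. The letters of the core were not found in the window of Phf11d.

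Library totals ran from 45737972 to 80388500 estimated counts, so counting error is small beside the difference between mice. The targeted gene matched the labels: Asxl2 lay between 4.63 and 5.63 TPM (a level scaled for transcript length and library depth) in the 4 KO libraries and between 23.0 and 30.8 TPM in the 4 WT libraries. The pair of litter 1 stood apart from the other libraries. Its mice had 3.33 and 3.61 TPM of Xist and 5.39 to 5.60 TPM summed over 4 Y-linked genes, while the other 6 had at most 0.0612 TPM of Xist and 91.2 to 206 TPM of the Y-linked genes. The labels give no sex, so results are also given without litter 1. Libraries differed too in how much RNA came from short transcripts. The slope of log2 TPM on log2 effective length over 9833 genes ran from -0.88 in the old KO mouse of litter 1 to -0.27 in the young WT mouse of litter 4.

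The list spanned a wide range of levels in TPM. Ly6e, a surface protein of the Ly6 family, had the highest mean of all 8 libraries at 1860 TPM. It was followed by the entry-restricting membrane proteins Ifitm1 (1274 TPM), Ifitm2 (1145 TPM) and Ifitm3 (873 TPM), and by Ifi27, a small membrane protein, at 342 TPM. Next came the secreted lectin-binding protein Lgals3bp (257 TPM), the transcription factor Irf1 (222 TPM), the nuclear body protein Sp100 (188 TPM), Bst2, which tethers budding virus to the cell (145 TPM), and the GTPase Irgm1 (139 TPM). The classical markers of an acute response were low: Isg15, a ubiquitin-like protein, averaged 23.0 TPM, the RNA-binding protein Ifit1 9.36 TPM, the antiviral enzyme Rsad2 3.67 TPM and the GTPase Mx1 1.33 TPM. No interferon gene was seen at more than a trace. The highest of 21 ligand genes in any library was Ifnb1 at 0.738 TPM, and 2 of the 21 passed the count filter.

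The interferon response genes did not move as one block with genotype or age. Over both ages the median log2 fold change of KO over WT was 0.07 for the 56 members and 0.10 for all genes tested, and 30 of the 56 were above 0. For old over young it was 0.03 against 0.15, with 31 above 0. The sign of the members' median depended on the libraries: for genotype it was -0.14 without the old KO mouse of litter 1 and 0.21 without that of litter 2, and for age -0.10 and 0.16. The old KO mouse of litter 1 had the highest level of 20 of the 56 members and the old WT mouse of litter 2 the highest of 12. The other old KO mouse, from litter 2, had the lowest level of 17. The plot of all 56 members by library shows this spread.

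**Figure D1:**
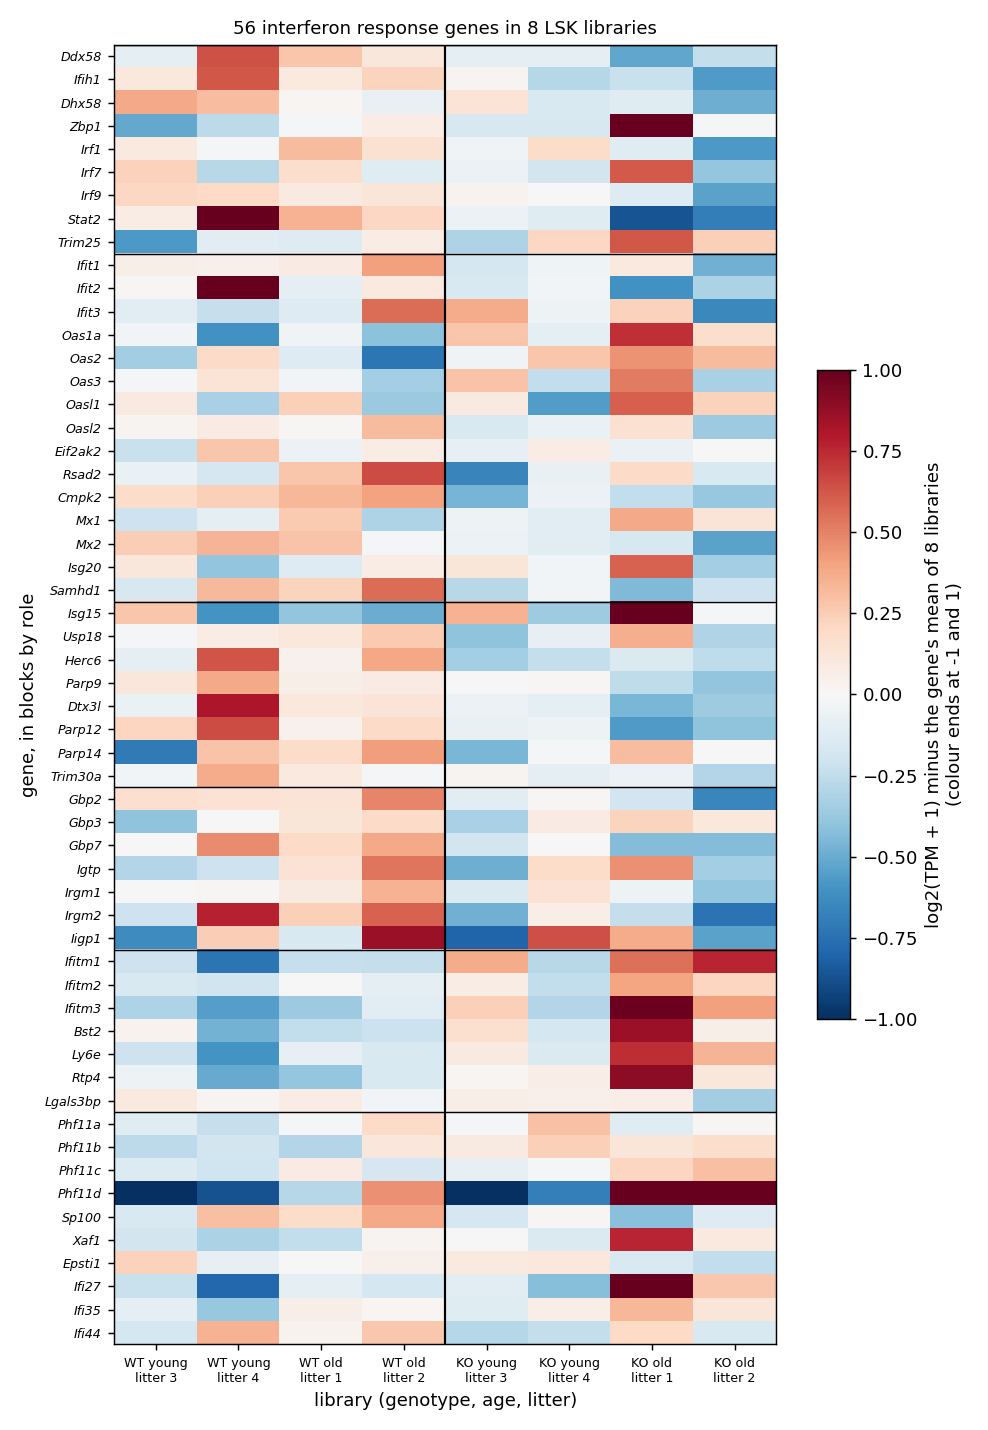
Each row is a member and each column a library; colour is log2(TPM + 1) minus the gene's mean over the 8 libraries, and horizontal lines divide the roles. Phf11d is high in both old KO mice, and the old KO mouse of litter 1 holds the highest value for 20 of the 56 genes.

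Within litters the old pairs differed in opposite directions. On log2 CPM (counts scaled to library size), 45 of 56 members were higher in the KO than in the WT mouse of litter 1, with a median difference of 0.62, against 0.06 for all genes. In litter 2, 18 of 56 were higher in the KO mouse and the median difference was -0.46, against 0.08 for all genes. The young litters were close to even, with 32 of 56 higher in KO and a median of 0.07 in litter 3, and 31 of 56 and 0.08 in litter 4. Between the old litters 27 members were higher in KO in litter 1 and lower in KO in litter 2, and none showed the reverse. Each litter is 1 pair of mice, so this difference between litters has no test. The 2 old KO mice differed by a median of 0.70 log2 units over the members, against 0.40 over all genes. In the other groups the members varied less than genes at large: 0.27 against 0.47 in young KO, 0.34 against 0.46 in old WT and 0.39 against 0.58 in young WT. The genes at large were not matched to the members in level, and the part of level in these values was not tested.

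Isg15 shows the pattern of litter 1. It stood at 51.2 and 20.7 TPM in the old KO mice, 16.1 and 26.9 in the young KO mice, 15.7 and 14.6 in the old WT mice and 13.6 and 25.6 in the young WT mice. Only the old KO mouse of litter 1 lay outside the range of the others, and the 2 genotypes overlapped. Ifi27 was 882 TPM in that mouse, 366 TPM in the other old KO mouse and 176 to 283 TPM in the remaining 6. Irf7, the factor that amplifies the type I response, was 78.1 TPM in that mouse and 38.5 to 59.7 TPM in the other 7. Zbp1, a sensor of Z-form nucleic acid, was 26.9 TPM there and 8.54 to 13.3 TPM elsewhere.

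For loss of Asxl2 over both ages, 5 members rose and 1 fell by edgeR's quasi-likelihood test at an adjusted p under 0.05 (Benjamini-Hochberg over all genes tested). Over all genes 9.98% were called, 3.19% higher and 6.78% lower. The 6 of 56 called members (10.7%) are thus near the share of all genes. Those that rose were Ifitm1, Ifitm3, Ly6e, Oas1a and Phf11d, and Stat2 fell. By role, 3 of the 7 membrane and secreted genes rose and all 7 had a positive fold change (median 0.67). These genes are short, with a median effective length of 494 bases, and against genes of similar length their median was 0.27. The 3 calls were lost with the length offset described below. Of the 15 effectors acting on RNA or nucleotides 1 rose, of the 9 induction and signalling genes 1 fell, and none of the 7 GTPases and none of the 8 genes of ubiquitin-like or ADP-ribose modification was called.

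Oas1a makes the short oligoadenylates that activate an RNA-cutting enzyme. It was 100.4 and 68.0 TPM in old KO, 56.1 and 73.0 in young KO, 58.6 and 45.1 in old WT and 39.3 and 59.1 in young WT mice. The KO mouse was higher in all 4 litters, although the genotypes overlapped by 1 young KO mouse, which lay below 2 WT mice. The log2 fold change was 0.69 (SE 0.15, adjusted p = 0.0248). Reads of Oas1a may be shared with its close copy Oas1g, which rose as well (0.93, SE 0.21, adjusted p = 0.0261), so the split between them is uncertain.

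Ifitm1 and Ifitm3 block the fusion of viruses with cell membranes, and their sequences are close enough for reads to be divided between them and Ifitm2 with some uncertainty. Ifitm1 was 1768 and 2048 TPM in old KO, 996 and 1563 in young KO, 1025 and 1021 in old WT and 726 and 1044 in young WT mice. One young KO mouse fell among the WT mice and the other 3 KO mice lay above them. The log2 fold change was 0.81 (SE 0.18, adjusted p = 0.0262). Ifitm3 was 1623 and 1096 TPM in old KO, 671 and 972 in young KO, 638 and 759 in old WT and 563 and 665 in young WT mice. Again 1 young KO mouse lay among the WT mice and the other 3 KO mice above them. Its log2 fold change was 0.80 (SE 0.22, adjusted p = 0.0415).

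Ly6e, a lipid-anchored surface protein that modulates viral entry, was 2997 and 2278 TPM in old KO, 1627 and 1913 in young KO, 1700 and 1617 in old WT and 1188 and 1558 in young WT mice. Both old KO mice lay above every other library. The log2 fold change was 0.67 (SE 0.16, adjusted p = 0.0285). Stat2, a transcription factor of type I signalling, went the other way. It was 9.82 and 11.2 TPM in old KO, 17.1 and 17.9 in young KO, 24.0 and 21.7 in old WT and 41.2 and 19.7 in young WT mice. All 4 KO mice lay below all 4 WT mice, with a log2 fold change of -0.78 (SE 0.18, adjusted p = 0.0271).

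On the TPM scale 11 members had all 4 KO libraries below all 4 WT libraries, which 8.08% of all genes did. These were the RNA sensors Ddx58 and Ifih1, the signalling factors Stat2 and Irf9, the nucleotide kinase Cmpk2, Mx2, the ubiquitin ligase Herc6, the ADP-ribosylation genes Parp9 and Parp12, and the GTPases Gbp2 and Gbp7. Their effective lengths ran from 2046 bases (Mx2) to 4124 bases (Stat2). Of the 11 only Stat2 was called for genotype by the test on counts. On log2 CPM the KO mouse was higher in 2 litters for Ifih1 and Herc6 and in 1 litter for Ddx58, Irf9, Parp9 and Gbp2. It was higher in 0 litters for Stat2, Cmpk2, Mx2, Parp12 and Gbp7. One member, Rtp4, a chaperone of membrane receptors, had all 4 KO libraries above all 4 WT libraries (76.0 to 140.2 against 52.4 to 72.2 TPM), which 1.8% of all genes did. By the test on counts Rtp4 missed the threshold (0.69, SE 0.22, adjusted p = 0.0689).

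**Figure D2:**
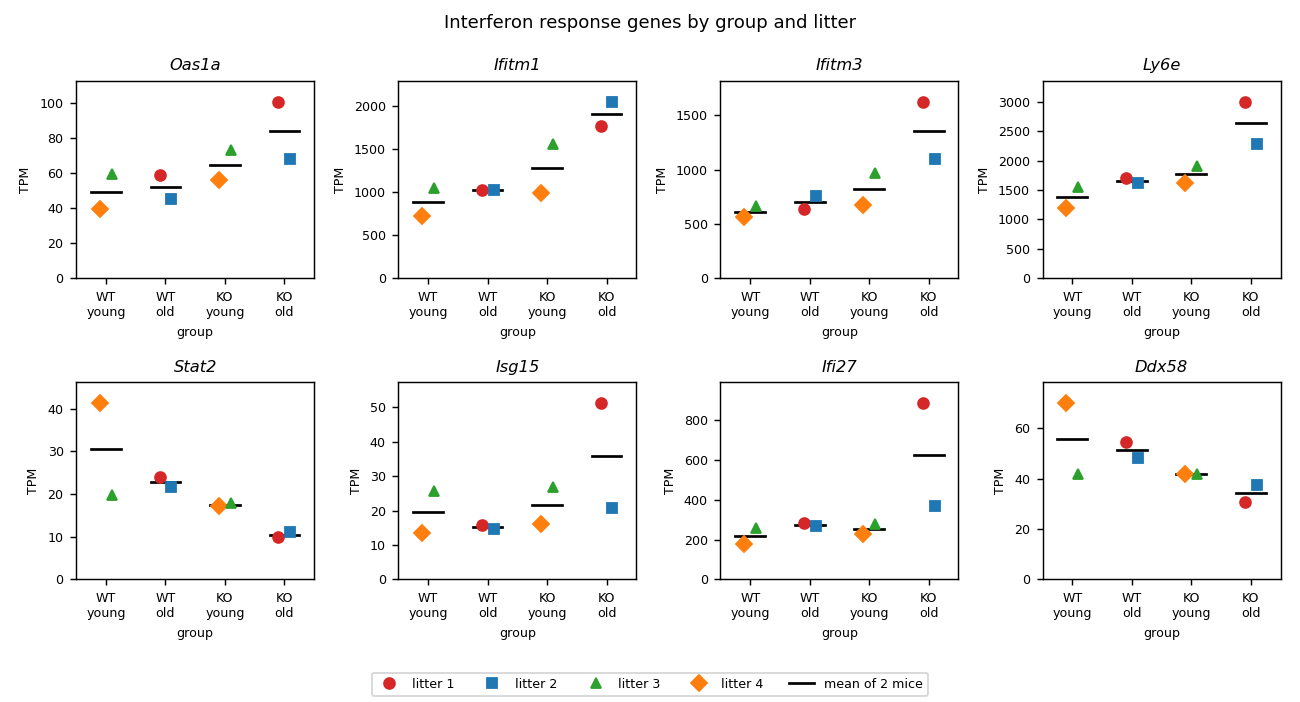
TPM by group for 8 members, with 1 point per mouse, marker shape and colour for the litter, and a bar for the mean of 2 mice; every axis starts at 0. Ly6e and Ifitm3 are highest in the old KO mice and Stat2 lowest, while Isg15 and Ifi27 are raised above all others in 1 old KO mouse.

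The calls for genotype depended on which mice were included, among the members and over all genes. Without litter 1 none of the 56 members was called, and 0.599% of all genes were. None was called without either old KO mouse, either old WT mouse or the young WT mouse of litter 4, taken out in turn, where 0.54% to 2.31% of all genes were. Without the young WT mouse of litter 3 the count was 14 of 56 (25%), against 18.7% of all genes. For the 6 called members, the log2 fold changes in batch 1 and batch 2 alone were 0.73 and 0.58 for Oas1a, 0.88 and 0.65 for Ifitm1, and 1.16 and 0.39 for Ifitm3. They were 0.75 and 0.52 for Ly6e, 1.36 and 0.91 for Phf11d, and -0.53 and -1.08 for Stat2. These 6 were picked by the fit to both batches, so their shared sign within each batch is no separate support. Over all 56 members the median was 0.20 in batch 1 and -0.22 in batch 2, against -0.09 and 0.10 for all genes.

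Genotype differences followed transcript length. All 10 members with an effective length under 1000 bases had a positive log2 fold change (0.31 to 0.82, median 0.63), and the 7730 tested genes of that length had a median of 0.46. Of the 22 members over 2500 bases 7 were positive, with a median of -0.20 against -0.23 for the 7451 genes of that length. Spearman's rho between length and log2 fold change was -0.63 over the 56 members and -0.32 over 25543 genes; these are descriptions across genes that share libraries and a fit. Against the 500 tested genes nearest in length, the median of the members was 0.07, with 8 of the 10 short members still positive and a median of 0.22 for these 10.

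With each gene's counts adjusted for the length trend of its library (the transcript-length offset), 2 members were called for genotype, where 3.95% of all genes were. Oas1a rose by 0.61 (adjusted p = 0.0487). Oas2, the larger synthetase of the same kind, rose by 0.97 (SE 0.27, adjusted p = 0.046) and was not called without the offset (0.81, adjusted p = 0.0716). Oas2 was 5.12 and 4.58 TPM in old KO, 4.44 and 3.36 in young KO, 3.08 and 1.71 in old WT and 4.12 and 2.51 in young WT mice, so the old genotypes did not overlap and the young ones did. The calls of Ifitm1, Ifitm3, Ly6e, Phf11d and Stat2 were lost, with edgeR adjusted p of 0.346, 0.432, 0.261, 0.0734 and 0.0696. Ifitm1 kept a log2 fold change of 0.33, Ifitm3 of 0.32, Ly6e of 0.31, Phf11d of 0.99 and Stat2 of -0.58.

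**Figure D3:**
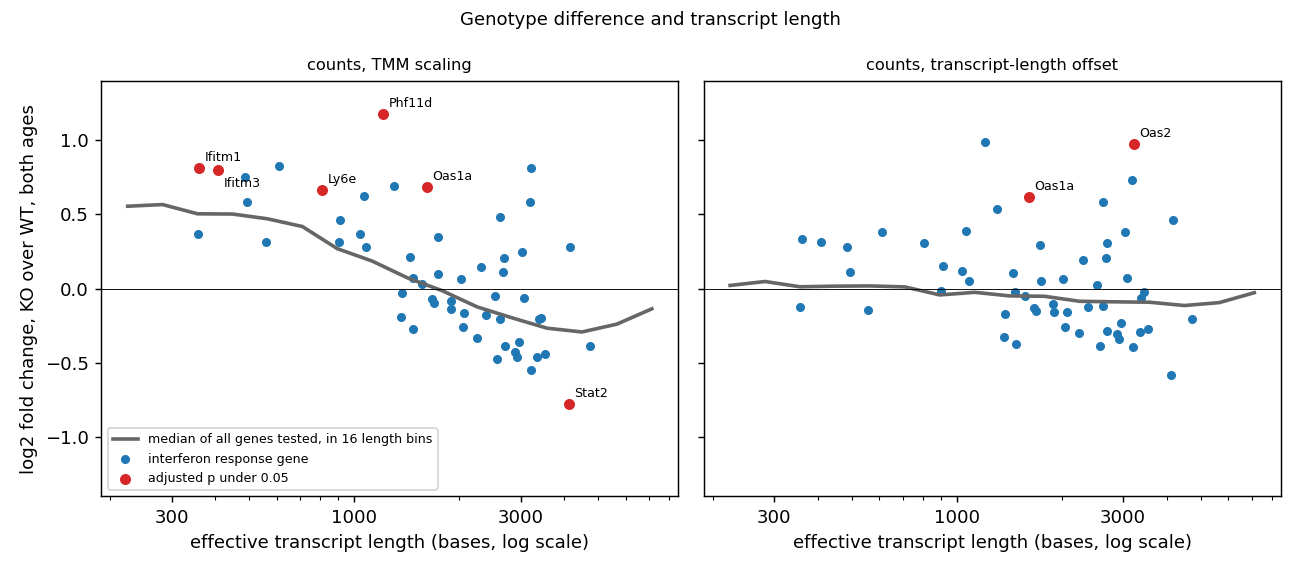
Log2 fold change of KO over WT over both ages against effective transcript length in bases on a log axis, for the counts as scaled by TMM (left) and with the length offset (right). Points are the 56 members, red where the adjusted p is under 0.05, and the grey line is the median of all genes in length bins; 6 members are called on the left and 2 on the right.

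Phf11d stood out from the rest of the list. It belongs to a family of PHD finger proteins encoded side by side on chromosome 14, whose roles are not well described. Its gene (minus strand, 59347407 to 59365470, GRCm38) lies between Phf11b (59320964 to 59341351) and Phf11c (59380833 to 59395381). Phf11d was 46.7 and 48.4 TPM in the old KO mice, 6.97 and 4.99 in the young KO mice, 9.52 and 16.6 in the old WT mice and 6.01 and 4.03 in the young WT mice. The old KO mice thus lay far above all others, the old WT mice came next, and the 2 young groups overlapped. The mean was 47.5 ± 1.16 TPM in old KO and 13.0 ± 4.99 TPM in old WT mice (SD, n = 2 each), a ratio of 3.65, while in young mice the ratio was 1.19.

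In old mice Phf11d rose in KO by 2.02 on the log2 scale (SE 0.30, edgeR adjusted p = 0.0198). It was the only member called there, where 0.65% of all genes were called and 0.204% were called higher. In KO mice it rose with age by 3.0 (SE 0.32, adjusted p = 0.00345), again the only member called, against 0.0861% of all genes called and 0.0626% called higher. Over both ages it rose in KO by 1.18 (SE 0.33, adjusted p = 0.0459), and over both genotypes it rose with age by 2.16 (SE 0.34, adjusted p = 0.0148). In WT mice the change with age was 1.30 (SE 0.30) with an adjusted p of 0.28, and in young mice the KO difference was 0.32 (SE 0.30) with an adjusted p of 0.736.

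The direct test of whether the KO difference in Phf11d changed with age gave 1.70 (SE 0.42), with an unadjusted p of 0.00176 and an adjusted p of 1.0 in edgeR. DESeq2 gave 1.69 with an adjusted p of 0.0499. Both old litters had the KO mouse higher, by 2.53 in litter 1 and 1.48 in litter 2 on log2 CPM, and the young litters differed by 0.33 and 0.31. With the length offset the difference in old mice was 1.76 (adjusted p = 0.00837) and the change with age in KO mice was 2.67 (adjusted p = 0.00033). Without litter 1, which leaves 1 mouse in each old group, the 2 values were 1.48 and 2.66 and the calls were lost (adjusted p = 0.467 and 0.262). With litter as a replicate block the difference in old mice was 2.01 and its adjusted p 0.084. Leaving out the old KO mouse of litter 1 or either old WT mouse also ended the call in old mice, and leaving out the young KO mouse of litter 3 that with age in KO mice. On log2(TPM + 1) with limma the difference in old mice was 1.84 (adjusted p = 0.0376) and the change with age in KO mice 2.81 (adjusted p = 0.0526).

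All 4 annotated transcripts of Phf11d were highest in the 2 old KO mice. The shortest, ENSMUST00000161031, a coding transcript of 1130 bases, was 28.0 and 32.0 TPM in old KO mice, 4.84 and 10.1 TPM in old WT mice and 1.66 to 3.30 TPM in the young mice. The coding transcript ENSMUST00000160425 was 10.1 and 7.01 TPM in old KO and 1.45 to 3.39 TPM in the other 6 libraries. The coding transcript ENSMUST00000095157 was 6.93 and 7.93 TPM against 0.619 to 2.46 TPM. The retained-intron transcript ENSMUST00000161754 was 1.61 and 1.41 TPM against 0.137 to 0.984 TPM. How reads are divided among these transcripts and the similar genes of the family is an estimate.

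The other Phf11 genes differed less between groups. Phf11b was 39.7 and 41.3 TPM in old KO, 43.2 and 38.8 in young KO, 29.5 and 39.4 in old WT and 32.0 and 30.1 in young WT mice. Phf11a stayed between 1.23 and 2.19 TPM and Phf11c between 0.667 and 1.36 TPM in the 8 libraries. The 2 highest values of Phf11c were those of the old KO mice, at 1.22 and 1.36 TPM. None of these 3 was called in any of the 7 comparisons by edgeR.

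**Figure D4:**
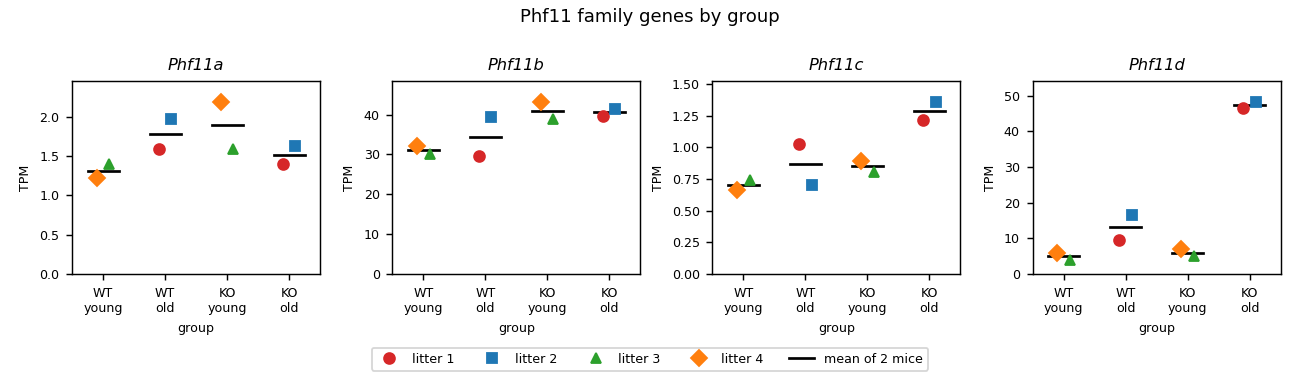
TPM of the 4 Phf11 genes by group, with 1 point per mouse, marker shape and colour for the litter, a bar for the mean of 2 mice and axes that start at 0. Phf11d is 46.7 and 48.4 TPM in old KO mice and at most 16.6 TPM elsewhere, and none of the other 3 genes was called in any comparison by edgeR.

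For age over both genotypes 1 member rose and 2 fell, against 13.9% of all genes called, 4.34% higher and 9.61% lower. The share of the members, 5.36%, lay below that of all genes. Phf11d rose, as given above. Ddx58, which encodes the RNA sensor Rig-I, fell by 0.54 on the log2 scale (SE 0.15, edgeR adjusted p = 0.0433). It was 30.8 and 37.7 TPM in old KO, 41.9 and 41.9 in young KO, 54.4 and 48.4 in old WT and 69.9 and 42.0 in young WT mice. The old mice were lower within KO, while the WT ages overlapped because the 2 young WT mice lay on either side of the old ones. Stat2 fell by 0.59 (SE 0.18, adjusted p = 0.0478), with the levels given above.

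With the length offset 19.2% of all genes were called for age, and among the members Phf11d rose (1.89, adjusted p = 0.00574) and Ddx58 fell (-0.55, adjusted p = 0.0407) while Stat2 missed the threshold (-0.49, adjusted p = 0.0584). Phf11d was no longer called without litter 1 (2.12, adjusted p = 0.0823) or without the young KO mouse of litter 3. The calls of Ddx58 and Stat2 were each lost when any 1 library other than the young WT mouse of litter 3 was left out. Within batch 1 and batch 2 alone the log2 fold changes with age were 2.18 and 2.09 for Phf11d, -0.50 and -0.55 for Ddx58 and -0.41 and -0.73 for Stat2. On TPM, Zbp1, the GTPase Gbp3 and Phf11d had all 4 old libraries above all 4 young ones, which 4.73% of all genes did. No member had all 4 old libraries below all 4 young ones, which 1.41% of all genes did.

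The remaining comparisons called no member by edgeR. For KO against WT in young mice 0.0626% of all genes were called. At an unadjusted p under 0.05 there were 4 of 56 members (Stat2, Ifit2, Oas1a and Ifitm1), against 9.46% of all genes, and DESeq2 called none, against 1.52%. For age in WT mice 0.0861% of all genes were called. Here 2 members had an unadjusted p under 0.05 (Phf11d and Ifit2), against 13.9% of genes, and DESeq2 called 1, Phf11d (1.32, adjusted p = 0.0014), against 1.54%. For the interaction of genotype and age 0.00391% of all genes were called. Among the members 3 had an unadjusted p under 0.05 (Phf11d, Oas2 and Ifi27), against 1.98% of genes, and DESeq2 called Phf11d alone, against 0.0391%.

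Among the interferon-inducible GTPases the median difference between the 2 mice of a group was larger in the old groups, although single genes were spread in the young groups too. On log2 CPM Iigp1 differed by 1.31 and Igtp by 0.50 between the young KO mice. Between the young WT mice Irgm2 differed by 0.82 and Iigp1 by 0.71. On log2 CPM the median difference over the 7 genes was 0.75 in old KO and 0.59 in old WT mice, against 0.40 and 0.46 over all genes, and 0.18 in young KO and 0.22 in young WT mice, against 0.47 and 0.58. All genes were again not matched in level. These proteins act on the membranes of vacuoles that hold microbes, and several are driven mainly by interferon gamma. Iigp1 was 42.9 and 22.4 TPM in old KO, 52.0 and 18.5 in young KO, 29.6 and 61.0 in old WT and 39.4 and 20.9 in young WT mice. In both young genotypes the mouse of litter 4 was above that of litter 3, and in old mice the order of the litters was opposite in the 2 genotypes. Igtp was 129 and 74.1 TPM in old KO, 107 and 66.7 in young KO, 104 and 137 in old WT and 81.3 and 76.4 in young WT mice. On TPM the orders of its litters were the same as for Iigp1. On log2 CPM the young WT mice differed by 0.105 for Igtp, in the opposite order. All 7 GTPases were lower in the KO mouse of litter 2 (median -0.92), and 5 of 7 were higher in the KO mouse of litter 1 (median 0.35). Reads of Gbp2, Igtp and the Irgm genes may be shared with similar family members.

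**Figure D5:**
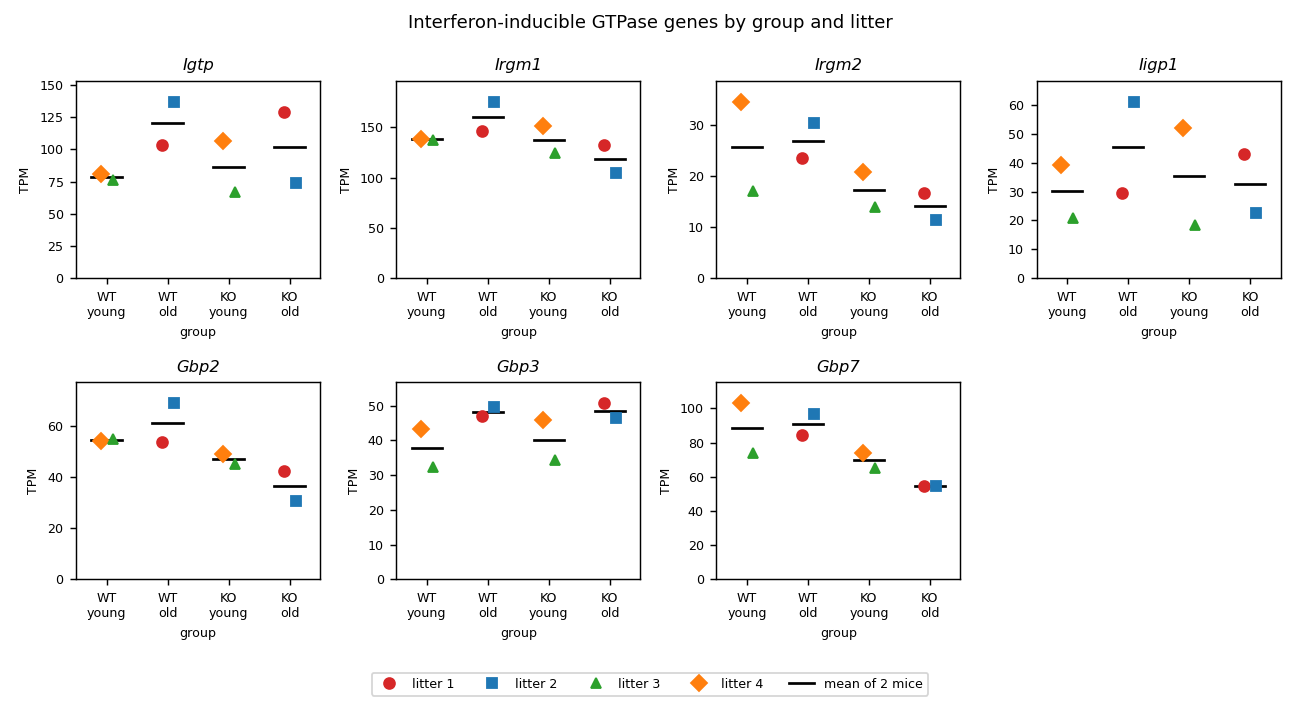
TPM of the 7 interferon-inducible GTPase genes by group, with 1 point per mouse, marker shape and colour for the litter, a bar for the mean of 2 mice and axes that start at 0. Iigp1 runs from 18.5 to 61.0 TPM, with the 2 mice of each group apart, while Irgm1 and Gbp2 lie close in the young groups.

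Other genes of the pathway, from receptors to further targets, were counted from lists. Of 129 further pathway genes listed, 128 were matched and 108 tested. For genotype over both ages 4 rose and 10 fell, against 3.19% of all genes called higher and 6.78% lower. Of the 11 receptors and Jak-Stat genes 4 fell: the receptor chain Ifnar1 (-0.64), the kinases Jak1 (-0.79) and Jak2 (-0.81), and Stat3 (-0.64). Jak1 was 95.1 and 131.8 TPM in old KO, 158 and 121 in young KO, 178 and 215 in old WT and 269 and 137 in young WT mice. The genotypes overlapped by 1 young mouse of each. Of 15 sensors and adaptors the kinases Ikbke (-0.90) and Tbk1 (-0.60) fell, and the factor Irf8 rose (0.76). Of the 63 further induced genes Cxcl10 (1.83), Oas1g and Ly6a rose, and Tdrd7 (-0.80), Trim21 (-0.66) and Pml fell. With the length offset 1 of the 108 tested rose (Irf8) and 3 fell (Jak1, Ikbke and Tdrd7), where 3.95% of all genes were called in either direction.

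For age 4 of these pathway genes rose and 19 fell, against 4.34% of all genes called higher and 9.61% lower. With the length offset 4 rose and 21 fell, where 19.2% of all genes were called in either direction. The largest were the apolipoprotein L genes Apol9a (2.88) and Apol9b (1.86), Slfn1 (-2.59), the Pyhin family gene Ifi208 (1.32), the feedback inhibitors Socs3 (1.27) and Cish (-0.98), Znfx1 (-0.94), Tlr7, a receptor for RNA (-0.82), Ikbke (-0.79) and Ifnar1 (-0.76). Apol9a was at most 0.814 TPM outside the old KO mouse of litter 1 (3.97 TPM) and the old KO mouse of litter 2 (0.862 TPM), and Slfn1 was at most 1.44 TPM in any library, so these folds rest on low levels. Socs3 was 61.7 TPM in the old WT mouse of litter 1 and 4.36 to 21.4 TPM in the other 7.

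The genes used to sort the cells moved too. Ly6a was 661 and 355 TPM in old KO, 266 and 304 in young KO, 237 and 276 in old WT and 150 and 225 in young WT mice, with a log2 fold change for KO of 0.90 (SE 0.22, edgeR adjusted p = 0.0321) that was 0.45 with the length offset (adjusted p = 0.228). Kit, the receptor of stem cell factor, was 63.4 to 161 TPM in KO and 133 to 547 TPM in WT mice (-0.88, adjusted p = 0.0438), and the call was lost with the length offset (-0.68, adjusted p = 0.0686). All 6 LSK identity genes listed were above 1 TPM in every library. The summed level of 12 stem cell markers was 572 to 993 TPM in the 4 KO and 1067 to 1634 TPM in the 4 WT libraries, so the genotypes did not overlap. In bulk RNA fewer cells of a type and less RNA per cell cannot be told apart, and the part of this difference in the results for the members was not tested.

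The summed markers of mature blood cells overlapped between genotypes, while single markers did not always. The 11 markers of plasmacytoid dendritic cells, which make type I interferon, summed to 238 to 316 TPM in KO and 234 to 313 TPM in WT libraries. Of these 11, Cox6a2 (3.53 to 14.0 against 1.10 to 2.93 TPM) and Clec10a (7.67 to 18.8 against 4.99 to 7.10 TPM) were higher in all 4 KO libraries, and Ccr9 and Klk1 were lower in all 4. The other 7 overlapped, among them Siglech at 0.4 to 2.90 TPM, Ly6d at 9.39 to 25.2 TPM in KO and 3.54 to 10.7 TPM in WT, and Irf8, which is also the pathway gene called higher above. The 10 neutrophil markers ran from 59.9 to 1493 TPM in KO and from 11.8 to 1043 TPM in WT libraries, with 260 TPM in the old KO mouse of litter 1. The 11 monocyte markers summed to 556 to 933 TPM in KO and 541 to 894 TPM in WT, and the 12 T and NK cell markers to 93.0 to 162 TPM in KO and 110 to 134 TPM in WT. The 10 erythroid markers summed to 1390 to 2460 TPM in KO and 1769 to 3186 TPM in WT, the 8 B cell markers to 85.3 to 101 and 77.5 to 95.1 TPM, and the 8 mast cell and basophil markers to 43.5 to 199 and 76.8 to 331 TPM. Single markers lay lower in all 4 KO libraries for erythroid cells (2 of 10, Klf1 and Car1) and for mast cells and basophils (3 of 8, Cpa3, Cma1 and Tpsb2), and for none of the neutrophil, B cell or T and NK cell markers. The 10 markers of stroma and endothelium summed to 45.4 to 57.9 TPM in KO and 67.5 to 108 TPM in WT, so these sums did not overlap. Singly, 7 of the 10 overlapped, and Col1a2, Pdgfrb and Emcn were lower in all 4 KO libraries. Pecam1, at 24.6 to 33.3 TPM in KO and 29.1 to 45.8 TPM in WT, was among those that overlapped. Cdh5 was under 0.1 TPM in every library. The part of these cells in the results was not tested.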

How the data were processed

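RNA was made into libraries with a kit for very low input, per the labels' protocols. The authors deposited kallisto estimated counts and TPM for 115088 transcripts per library, per the file headers; the submitters' processing notes name kallisto, mm10 and DESeq2, and their versions are not given in the sources used here. Transcripts were matched to GENCODE vM21 (114200 matched, 888 did not and held at most 0.47% of counts), summed per gene, and counts were rounded. Genes were kept by filterByExpr (minimum count 10, total 15), scaled by TMM and tested with edgeR 4.0.16 quasi-likelihood F tests (R 4.3.3), adjusted by Benjamini and Hochberg over 25543 genes at 0.05. Effects over both ages or genotypes came from genotype + age + batch (4 residual degrees of freedom), the others from the 4 groups + batch (3). The code was tested on simulated data.

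Alternatives were DESeq2 1.42.0, no filter, limma 3.58.1 on log2(TPM + 1), a transcript-length offset (lowess, span 0.3), litter as a replicate block, single batches, and leaving out litter 1 or each library. Littermates' deviations from group means correlated by 0.061 (old) and 0.12 (young); the labels name littermates, so the pairing comes from them. Differences within litters are on log2 CPM (prior count 2). The members and lists were chosen with earlier results of these data known. Named are the members past the threshold in each comparison, the 10 with the highest mean TPM, those whose call the length offset changed, up to 10 called pathway genes by size in each comparison over both ages or genotypes, and Ly6a, Kit and Asxl2; some pathway genes the rule would name are not reported here. Ifnar1, Stat3, Tbk1 and Pml are named to complete their counts. Isg15, Ifi27, Irf7, Zbp1, Iigp1, Igtp, Rtp4 and the low-level examples were chosen after their values were seen. RefSeq windows were matched by symbol for 44 of the 56 members.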

Additional observations from a re-analysis of the deposited data

How the results depend on the processing

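The number of the 56 members called depended on the setting, and so did the share of all genes called, which is given in brackets. For KO against WT over both ages it was 6 (9.98%), with 19 by DESeq2 (21.1%), 14 with no filter on low counts (10%), 2 with the length offset (3.95%) and 0 without litter 1 (0.599%). Within batch 1 alone it was 4 (0.869%), all higher in KO. Within batch 2 alone it was 13 (26.7%), with 3 higher and 10 lower in KO. It was 0 to 14 when 1 library was left out, with 14 (18.7%) without the young WT mouse of litter 3. For age over both genotypes it was 3 (13.9%), with 6 by DESeq2 (26.4%), 8 with no filter (15.3%), 0 by limma on log2(TPM + 1) (0.164%), 0 without litter 1 (0.0783%), 1 within batch 1 alone (10.7%) and 5 within batch 2 alone (7.36%). It was 0 to 8 when 1 library was left out, with 8 (19.3%) without the young WT mouse of litter 3. For KO against WT in old mice it was 1 (0.65%), with 14 by DESeq2 (13.1%), 11 with no filter (5.95%), 5 by limma (6.08%), 2 with the length offset (2.6%), 0 with litter as a replicate block (0.047%) and 0 without litter 1 (0.0157%). It was 0 to 11 when 1 library was left out, with 10 (12.1%) and 11 (7.67%) without the young WT mouse of litter 4 or 3. For age in KO mice it was 1 (0.0861%), with 5 by DESeq2 (13.9%), 5 with no filter (6.96%) and 0 by limma (0.0157%). The median log2 fold change of the members there ran from -0.34 to 0.44 over the alternatives. For KO against WT in young mice the number called was 0 (0.0626%), and the members' median ran from -0.02 to 0.11 over the alternatives. For age in WT mice the number called was 0 (0.0861%), with 1 by DESeq2 (1.54%) and 1 with no filter (2.4%). The members' median there ran from -0.25 to 0.30 over the alternatives. For the interaction the number called was 0, with 1 by DESeq2 (0.0391%). Leaving out litter 1, or 1 library, leaves a group with 1 mouse that is assumed to vary like the others, and fewer samples to test. The cause of the other shifts was not tested. No called member changed direction under any alternative. These members were picked by the main fit to the same libraries, so the kept direction is no separate support. With the replicate block 4 members stayed called for genotype over both ages (4.55%), and Ifitm3 (adjusted p = 0.0649) and Phf11d (0.0794) did not. Age cannot be tested within litters, since each litter has 1 age.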
